A study of Mus musculus with 56 samples.

Results

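Livers of mice homozygous for leucine at residue 446 of the glucokinase regulatory protein (LL, 446L) were compared with livers of heterozygous mice (PL, 446P/L), where every mouse of both genotypes received a glucokinase activator (GKA). Mice were chosen by their labels alone: 10 LL mice (numbers 47 to 56) and 8 PL mice (numbers 29 to 36), 18 of the 56 mice sequenced. All were males of the P446L knock-in line on a C57BL/6N background, fed for 20 weeks a high-fat high-sugar diet (HFHSD; 45% of energy as fat, with 10% glucose and 5% fructose in the drink), with GKA at 3 mg/kg. The labels give neither age, litter nor time of harvest, and the activator is not named in them. Both groups thus share the diet, the activator and at least 1 copy of 446L.

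Glucokinase (GK) catalyses the first step of glucose use in hepatocytes, and its regulatory protein (GKRP, gene Gckr) holds it inactive in the nucleus and releases it when glucose or fructose metabolites rise. Activators of this class bind GK directly and raise its affinity for glucose. Cholesterol synthesis in the same cells is run by the transcription factor SREBP2, which is held in the endoplasmic reticulum by INSIG proteins when sterol is plentiful and is set free to switch on the enzymes of the pathway when sterol is scarce.

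The residue that differs between the groups lies in exon 15 of the 19 exons of Gckr-202, the full-length coding transcript of Gckr. In the reference genome (GRCm39) its codon is at chr5:31466275-31466277 on the plus strand and reads CCA, for proline. The stretch below is shown because it is the engineered site (variant P446L); the capitals mark codon 446, and the knock-in codon itself was not read from these data.

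Gckr codon 446: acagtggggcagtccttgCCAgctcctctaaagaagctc

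Total reads assigned to genes were between 5661154 and 8081370 in PL mice (6.42 ± 0.723 M, mean ± SD, n = 8) and between 5478325 and 7058689 in LL mice (6.38 ± 0.490 M, n = 10). All 9 hepatocyte identity genes with data were expressed in both groups. No read in any of the 18 livers was found for 5 of 6 pancreas and 4 of 5 muscle markers. Of 6 adipocyte markers, 2 (Adipoq and Lep) had no read. Summed adipocyte markers ranged from 2.10 to 10.6 CPM (counts per mega reads) in PL and from 4.01 to 19.6 CPM in LL, highest in LL mouse 53. Their medians were 3.76 and 6.75 CPM. Summed macrophage markers ranged from 250.3 to 917 CPM in PL and from 222 to 573 CPM in LL, with the highest levels in PL mouse 29 and LL mouse 48. Summed globin and other blood genes reached 2960 CPM in LL mouse 53, against a median of 440.1 CPM in that group.

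For Gckr, the gene of GKRP, no difference between the genotypes was detectable. Gckr (chr5:31454787-31484658) was at 136, 166 and 184 CPM in the lowest, median and highest PL mouse and at 116, 152 and 185 CPM in LL. The ranges overlapped almost fully, and the log2 fold change of LL over PL was -0.11 (SE 0.09, edgeR quasi-likelihood p 0.219, adjusted over all genes 0.780).

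Gckr-202 took 52.5 ± 10.8% of the Gckr reads in PL (SD, n = 8; between 31.2% and 63.2%) and 46.6 ± 10.5% in LL (n = 10; between 28.4% and 62.0%). The groups overlapped over most of their range, and the difference of -5.88 percentage points was smaller than the spread between mice (two-sided exact permutation p 0.258). In TPM, which weights short transcripts up, the shares were 34.2% and 24.8% (exact permutation p 0.200, n = 8 and 10). Most other reads fell on Gckr-207, a transcript with a retained intron, with 34.2 ± 5.63% in PL and 41.0 ± 7.92% in LL, which was not tested. Between 689 and 1205 reads per mouse fell on Gckr, and the transcripts share most exons.

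To find genes that differ by the second copy of 446L in mice given GKA, 10491 genes were tested. Genes were called differentially expressed (DEGs) where p, adjusted by the Benjamini-Hochberg method, was below 0.05 and LL was 1.3 times PL or more, or 0.7 times PL or less. By edgeR there was no DEG (0 genes, 0%), with a smallest adjusted p of 0.124, while 902 genes had an unadjusted p below 0.05, of which 504 were lower in LL (4.8% of genes tested) and 398 higher (3.79%). DESeq2 called 30 DEGs, 9 higher and 21 lower (0.301% of 9963 genes). An edgeR fit of all 6 groups of the series called 21, 3 higher and 18 lower. The count depended on single mice, since in the fit of the 2 groups edgeR called 15 DEGs, 2 higher and 13 lower and 8 of them cholesterol enzymes, without PL mouse 30, 1 (Lhx6) without PL mouse 32 and 0 without any other single mouse. For this reason values are given below as higher or lower in LL, and no gene is said to have risen or fallen by edgeR.

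The genes of cholesterol synthesis stood lower in LL than in PL. All 20 enzymes from acetoacetyl-CoA to cholesterol had a negative log2 fold change, 18 of 20 when an offset for transcript length was used, and 19 of 20 had an unadjusted p below 0.05, beside 4.8% of all genes in that direction. Their median log2 fold change was -0.90, the most negative -2.20 (Sqle), where the median of all genes tested was -0.0025. None passed adjustment by edgeR (smallest adjusted p 0.124). DESeq2 called 7 of the 20 beside 0.301% of all genes, among them Msmo1, Fdft1, Pmvk, Idi1, Lss and Sqle. The fit of all 6 groups called 11, where 21 of 11477 genes were called in all. The list was chosen with earlier results of these data known, so its direction is no independent evidence. The same mice recurred over the enzymes (below), so the 20 are not 20 separate results.

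**Figure D1:**
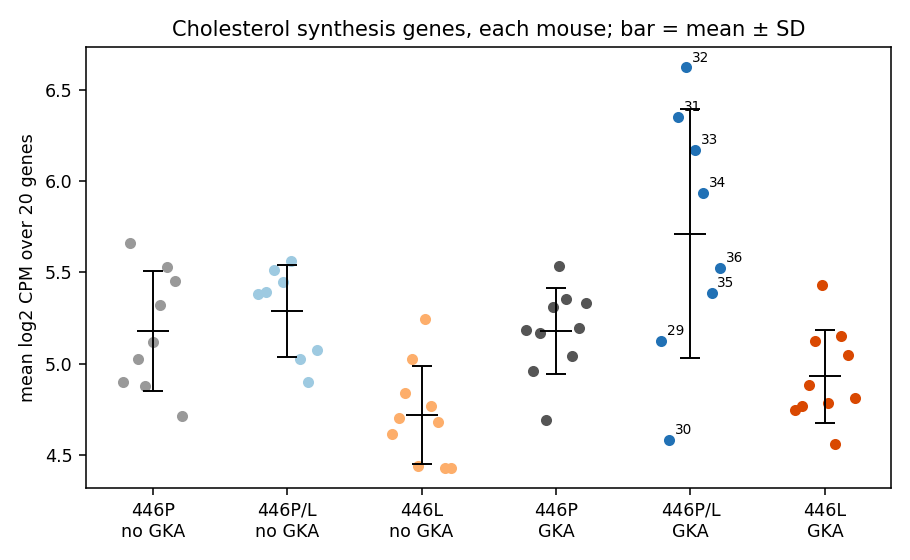
Mean log2 CPM over the 20 cholesterol synthesis genes (vertical axis) in each mouse of the 6 groups (horizontal axis); points are mice, bars are the mean ± SD, and the PL mice with GKA carry their numbers. PL mice with GKA spread from 4.58 (mouse 30) to 6.62 (mouse 32), wider than the LL mice with GKA, which lie between 4.56 and 5.43.

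The difference came with a wide spread among the heterozygotes. The mean log2 CPM of the 20 genes was 6.35, 6.62, 6.17 and 5.94 in PL mice 31, 32, 33 and 34. It was 5.12, 4.58, 5.39 and 5.53 in PL mice 29, 30, 35 and 36, and 4.56, 4.85 and 5.43 in the lowest, median and highest LL mouse. The first 4 PL mice and mouse 36 thus exceeded every LL mouse, and mouse 30 lay among the lowest LL mice. The genotype of mouse 30, as of every mouse here, was taken from its label and could not be checked in these counts; without it the median log2 fold change of the 20 was -1.01. The same mice recurred gene by gene, with the highest level of 15 of the 20 enzymes in PL mouse 32 and the lowest PL level of 17 in PL mouse 30, and the SD was larger in PL than in LL for all 20. For 16 enzymes all 10 LL mice were below the PL mean, and for no enzyme were the groups apart without overlap.

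The first enzymes, from acetyl-CoA units to squalene, numbered 9, and their median log2 fold change was -0.92. Hmgcs1 (HMG-CoA synthase) was at 62.9, 179 and 290.2 CPM in the lowest, median and highest PL mouse and at 73.1, 99.95 and 109 CPM in LL. Of the 8 PL mice, 5 were above all 10 LL mice, while PL mouse 30 was the lowest of its group. Its log2 fold change was -0.84 (SE 0.23, edgeR adjusted p 0.257).

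The kinase Pmvk (chr3:89361758-89376323) was at 9.86, 29.6 and 59.9 CPM in PL and 8.96, 12.9 and 18.5 CPM in LL, a log2 fold change of -1.12 (SE 0.24, edgeR adjusted p 0.124). Idi1, the isomerase that makes the second 5-carbon building block (chr13:8935537-8942487), was at 15.7, 61.7 and 128 CPM in PL and 15.1, 23.1 and 39.8 CPM in LL, a log2 fold change of -1.44 (SE 0.33, adjusted p 0.151). In both of these genes the PL median lay above the highest LL mouse. Fdft1 (squalene synthase) had a log2 fold change of -0.89 (SE 0.19) and Fdps, the enzyme before it, one of -0.91 (SE 0.26), and Acat2, Mvk and Mvd lay between -0.60 and -1.39.

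From squalene to cholesterol 11 enzymes were measured, with a median log2 fold change of -0.80. Sqle (squalene epoxidase, chr15:59186869-59203043) was at 1.57, 15.5 and 57.5 CPM in the lowest, median and highest PL mouse and at 1.85, 4.10 and 11.1 CPM in LL. The change was the most negative of the 20, at -2.20 (SE 0.53, edgeR p 0.000484, adjusted 0.195), and yet its lowest mouse of all 18 was PL mouse 30. Msmo1 (methylsterol monooxygenase, chr8:65170603-65186830) was at 23.5, 73.9 and 118 CPM in PL and 24.5, 30.0 and 42.8 CPM in LL, with 6 PL mice above every LL mouse.

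Msmo1 had a log2 fold change of -1.23 (SE 0.25, edgeR p 9.49e-05, adjusted 0.124; adjusted p 0.00353 by DESeq2). Lss (lanosterol synthase), Cyp51 and Nsdhl had log2 fold changes of -0.84, -0.97 and -1.09, with SE of 0.20, 0.28 and 0.29. Smaller differences were found for Hsd17b7 (-0.42) and Sc5d (-0.46), with SE of 0.17 and 0.13. Tm7sf2 was at -0.57. Dhcr7, at -0.80, and Ebp, at -0.38, turned to 0.39 and 0.26 under the transcript length offset, where Lss was at -0.11 (adjusted p 0.933). Exons of 8 of the 18 enzymes named overlap those of another expressed gene (Sqle with Washc5, Fdft1 with Ctsb), and whether the counting used strand is not given in the sources used here.

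**Figure D2:**
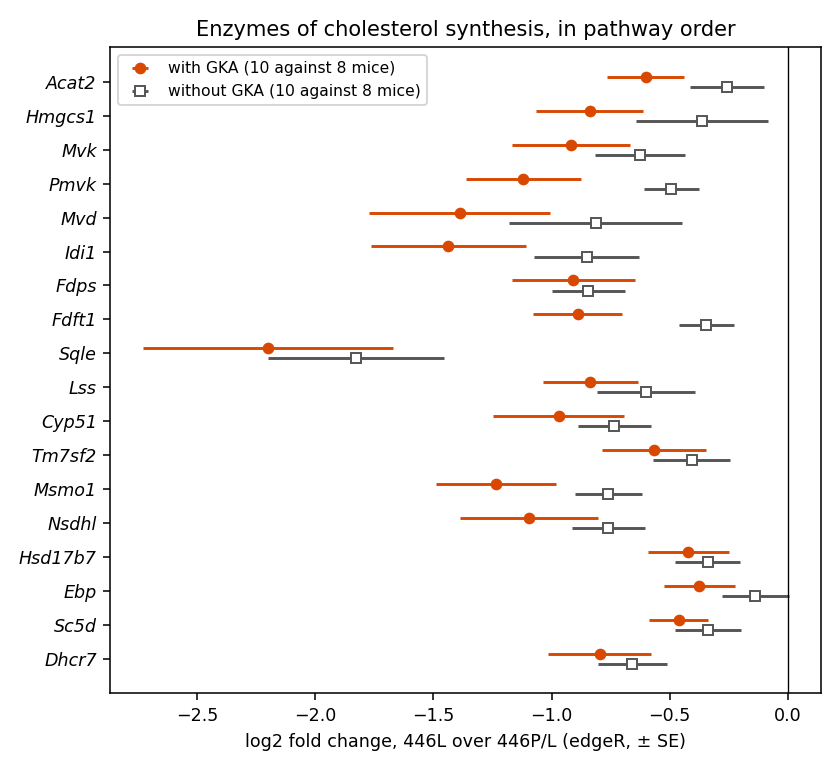
Log2 fold change of LL over PL (horizontal axis, edgeR, bars are SE) for 18 of the 20 enzymes in pathway order from top to bottom, with GKA (filled circles) and without GKA (open squares). With GKA the values run from -2.20 to -0.38, and for all 18 enzymes they lie to the left of the value without GKA.

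The same 2 genotypes without GKA give a set of mice that share no animal with these. There the 20 enzymes were again all lower in LL, 15 of them at an unadjusted p below 0.05 (2.56% of all genes in that direction), with a median log2 fold change of -0.55. The fold change with GKA was the more negative for all 20. The interaction of GKA with genotype, which tests whether the difference between genotypes itself differed by GKA, had an unadjusted p below 0.05 for 3 of the 20 enzymes, among them Pmvk (0.0331) and Fdft1 (0.0237), where 3.96% of 11164 genes passed this threshold. No gene passed adjustment for the interaction by edgeR (0 genes, 0%, with 442 unadjusted). DESeq2 called 3, a ribosomal pseudogene (Rps27a-ps3) and 2 predicted genes (Gm43590 and Gm2225). Their log2 interaction values of 25.6, -30 and 30 are too extreme to be read as sizes. Gm43590 and Gm2225 were not tested by edgeR. The mean log2 CPM over the enzymes was 5.29 ± 0.250 in PL (n = 8) and 4.72 ± 0.269 in LL (n = 10) without GKA, against 5.71 ± 0.683 and 4.93 ± 0.256 with GKA. In homozygous 446P mice (PP) with GKA it was 5.18 ± 0.237 (n = 10), a level above LL for 16 enzymes and below PL for 19, as means of CPM.

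Promoters of the pathway are shown because the enzymes stood lower together. SREBP2 acts at sterol elements with the factor NF-Y, which binds CCAAT boxes. RefSeq promoter windows of 300 bases (GRCm38.p6, 250 bases upstream of the start site and 50 after it) were at hand for 15 of the 20 enzymes, and 14 of the 15 held the letters CCAAT on either strand in a window. Counted by window, as some genes have more than 1, these were 14 of 18 (77.8%), beside 37.41% of all 32851 windows. Other lists described below were above that share too. The box was in 8 of 15 windows (53.3%) of the glucose sensing genes, which lay the other way. It was in 4 of 8 windows (50.0%) of the immediate early genes and 4 of 8 (50.0%) of sterol sensing and uptake. Whether the box bears on these levels was not tested. The sterol element letters TCACNCCAC, on either strand, were found in 1 of the 18 windows (5.6%, Hmgcs1) and in 1.24% of all windows. In the stretches below, upstream of the start site and written on the strand of the gene, capitals mark the box CCAAT, which on the other strand reads ATTGG, and in Hmgcs1 also the sterol element. They are chr8:64733614-64733753 (minus strand) for Msmo1, chr13:8885546-8885605 (plus) for Idi1, chr13:119690101-119690325 (plus) for Hmgcs1, chr3:89454390-89454424 (plus) for Pmvk and chr5:28071181-28071215 (plus) for Insig1.

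Msmo1: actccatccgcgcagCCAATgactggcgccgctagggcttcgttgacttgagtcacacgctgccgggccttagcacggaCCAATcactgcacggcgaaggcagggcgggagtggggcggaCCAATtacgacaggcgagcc
Idi1: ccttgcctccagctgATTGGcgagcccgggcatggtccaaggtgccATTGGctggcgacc
Hmgcs1: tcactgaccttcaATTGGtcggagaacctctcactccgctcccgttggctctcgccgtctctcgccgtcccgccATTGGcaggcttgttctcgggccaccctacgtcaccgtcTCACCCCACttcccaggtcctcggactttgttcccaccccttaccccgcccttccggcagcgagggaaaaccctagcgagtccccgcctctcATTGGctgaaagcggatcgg
Pmvk: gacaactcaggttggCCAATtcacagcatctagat
Insig1: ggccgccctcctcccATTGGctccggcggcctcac

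Of the 8 genes of sterol sensing and uptake, 7 were lower in LL (6 under the transcript length offset, where Scap turned to 0.26), 6 at an unadjusted p below 0.05 (4.8% of all genes in that direction), with a median log2 fold change of -0.34. Insig1, whose product retains SREBP2 and whose own gene SREBP2 drives (chr5:28276315-28283668), was at 98.3, 261 and 341 CPM in the lowest, median and highest PL mouse and 71.3, 114 and 173 CPM in LL. All PL mice but 29 and 30 were above every LL mouse. Its log2 fold change was -1.08 (SE 0.22, edgeR p 7.16e-05, adjusted 0.124; adjusted p 0.00327 by DESeq2).

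Srebf2, the gene of SREBP2 itself, and Stard4, a sterol carrier, each had a log2 fold change of -0.34 (adjusted p 0.372 and 0.451), and Scap, the escort of SREBP2, one of -0.31. Insig2, the other retention protein, lay the other way, at 158, 222 and 268 CPM in PL and 101, 301 and 524 CPM in LL (a log2 fold change of 0.40, SE 0.20, adjusted p 0.594). Mylip, a ubiquitin ligase induced by LXR, was at -0.16 (SE 0.25).

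Genes that export sterol or answer to the oxysterol receptors LXR did not stand apart, with 5 of 9 higher and a median log2 fold change of 0.06. The transporters Abcg5 and Abcg8, which pass sterol into bile, had log2 fold changes of 0.08 and 0.10 (SE 0.15 and 0.16), that of Abcg5 being -0.04 under the transcript length offset. Nr1h2, an LXR itself, was the only member at an unadjusted p below 0.05, at -0.20, and turned to 0.42 under that offset. Among 9 bile acid genes 7 were lower (6 under the offset), with Nr0b2, the small heterodimer partner that represses bile acid synthesis, at 11.4, 23.5 and 37.5 CPM in PL and 11.4, 14.4 and 23.3 CPM in LL. Nr0b2 had a log2 fold change of -0.55 (SE 0.19, edgeR p 0.00916, adjusted 0.416), beside -0.26 for the oxysterol and bile acid enzyme Cyp27a1 and 0.21 for Nr1h4, the bile acid receptor FXR. Abcb4, which moves phospholipid into bile, was at 122, 175 and 191 CPM in PL and 169, 234 and 278 CPM in LL, a log2 fold change of 0.46 (SE 0.11, edgeR adjusted p 0.203; 0.0148 by DESeq2). All 10 LL mice were above the PL mean of Abcb4, and 4 PL mice were below every LL mouse.

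**Figure D3:**
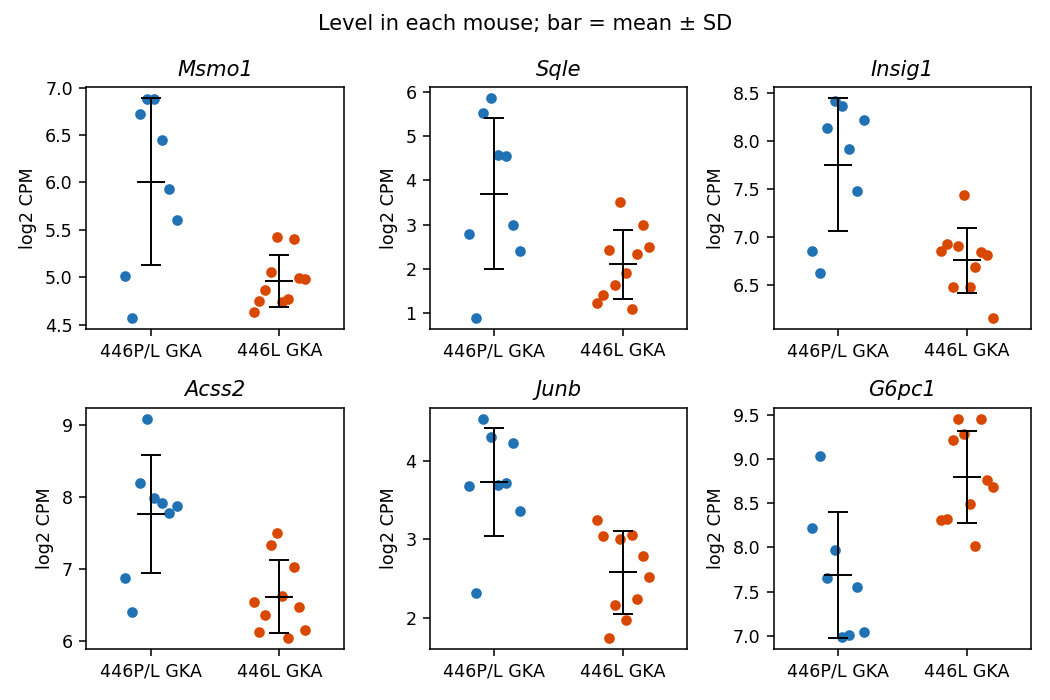
Log2 CPM (vertical axis) of 6 genes in each PL and LL mouse with GKA; points are mice and bars the mean ± SD. Msmo1, Sqle, Insig1, Acss2 and Junb are lower and G6pc1 is higher in LL, with overlap between the groups in every panel.

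Genes listed for fatty acid synthesis, Pnpla3 and Tmem97 among them, leaned the same way. Of 15, 14 were lower (12 under the transcript length offset), with a median log2 fold change of -0.38. An unadjusted p below 0.05 was found for 5 (4.8% of all genes in that direction). The summed CPM of the list had medians of 25876 in PL and 24636 in LL. Without GKA 10 of the 15 were lower, with a median log2 fold change of -0.07. Acss2, which makes acetyl-CoA from acetate (chr2:155355679-155428016), was at 84.9, 239 and 545 CPM in the lowest, median and highest PL mouse and 65.6, 90.8 and 182 CPM in LL. For Acss2 the log2 fold change was -1.25 (SE 0.28, edgeR adjusted p 0.141; 0.00559 by DESeq2), and 6 PL mice lay above all LL mice. Pnpla3, a lipid droplet protein, was at -1.21 (SE 0.45), Acly, which splits citrate to acetyl-CoA, at -0.63 (SE 0.25), Me1, which supplies NADPH, at -0.57 (SE 0.26) and Tmem97, a sterol-binding membrane protein, at -0.38 (SE 0.15). In these 5 genes PL mouse 32 was the highest mouse and PL mouse 30 the lowest PL mouse, as for the cholesterol enzymes. Without PL mouse 32, Me1 was at -0.35 and Pnpla3 at -0.79. Acsl3, an acyl-CoA synthetase outside the list, was at 8.30, 15.5 and 22.9 CPM in PL and 6.79, 9.32 and 10.8 CPM in LL, a log2 fold change of -0.78 (SE 0.17, edgeR adjusted p 0.124; 0.00692 by DESeq2).

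Genes of glucose sensing lay the other way. Of 14 genes that follow GK activity or the glucose-responsive factor ChREBP, 11 were higher in LL (10 under the transcript length offset), 5 of them at an unadjusted p below 0.05 beside 3.79% of all genes, with a median log2 fold change of 0.18. The list was chosen with knowledge of the study, so its direction is no independent evidence. G6pc1, the catalytic subunit of glucose 6-phosphatase (chr11:101258369-101268729), was at 127, 194 and 525 CPM in PL and 258, 422 and 699.6 CPM in LL. All LL mice were above the PL mean and 6 of 8 PL mice below every LL mouse, PL mouse 30 being the highest of its group.

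The log2 fold change of G6pc1 was 1.03 (SE 0.28, edgeR p 0.00147, adjusted 0.257; 0.042 by DESeq2). Without GKA it was 1.42, where G6pc1 was the 1 DEG between LL and PL by edgeR, and the interaction p was 0.274. Txnip, which restrains glucose uptake, was at 23.7, 44.7 and 76.9 CPM in PL and 39.3, 67.3 and 171 CPM in LL, with a log2 fold change of 0.81 (SE 0.27, adjusted p 0.416). The groups of Txnip overlapped, with 3 PL mice below every LL mouse. Slc25a47, a mitochondrial carrier of the liver, was at 0.41 (SE 0.14), Gpd2, of the glycerophosphate shuttle, at 0.25 (SE 0.10) and Fgf21, a liver hormone at few counts, at 1.05 (SE 0.42), while Rgs16 was at 0.37 (SE 0.29), or 0.17 without LL mouse 47. Pdk4, a FOXO1 target that curbs pyruvate oxidation, was at 1.26 (SE 0.45, adjusted p 0.451). It was the highest of 8 genes listed for insulin signalling and FOXO1. Of these 8 genes 3 were higher and 5 lower, with a median log2 fold change of -0.09.

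**Figure D4:**
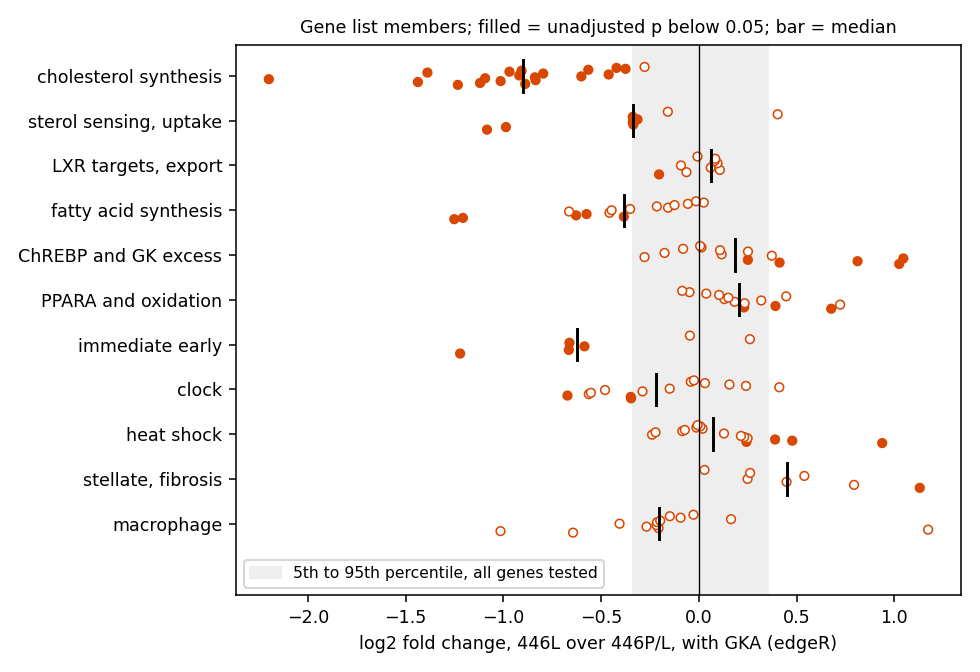
Log2 fold change of LL over PL with GKA (horizontal axis, edgeR) for each tested member of 11 gene lists (rows); filled points have an unadjusted p below 0.05, black bars are list medians and the grey band holds the 5th to 95th percentile of all 10491 genes, -0.34 to 0.35. Most cholesterol synthesis genes lie left of the band, with a median of -0.90, and LXR targets lie within it.

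The genes with the smallest p outside these pathways included immediate early genes, which answer within minutes to growth factors, feeding or stress. Of 6 tested, 5 were lower in LL and 4 had an unadjusted p below 0.05 (4.8% of all genes in that direction), with a median log2 fold change of -0.62. Junb (chr8:85701113-85705359), a subunit of the AP-1 factor, was at 4.70, 12.7 and 22.9 CPM in PL and 3.04, 6.05 and 9.16 CPM in LL. All PL mice but mouse 30 were above every LL mouse, and the log2 fold change of Junb was -1.22 (SE 0.25, edgeR p 0.000103, adjusted 0.124; 0.00536 by DESeq2). Zfp36, which destabilises inflammatory mRNAs, was at 28.9, 38.9 and 58.2 CPM in PL and 19.4, 25.5 and 35.1 CPM in LL (a log2 fold change of -0.67, SE 0.14). Ier2 and Btg2 were at -0.59 and -0.66 (SE 0.18 and 0.26), and Csrnp1, an immediate early type nuclear protein called by DESeq2, was at -0.996 (SE 0.22).

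The 13 macrophage markers tested had a median log2 fold change of -0.21, 11 of them lower but none at an unadjusted p below 0.05. PL mouse 29 and LL mouse 48 had the highest macrophage and stellate markers of their groups, and LL mouse 53 the highest blood genes. Without these 3 mice, 7 of 13 markers were lower and their median was -0.04, and without PL mouse 29 alone the median was 0.08. Mice highest in other markers were kept, such as PL mouse 32 for B cells. In bulk liver, fewer cells of a type and less RNA per cell cannot be told apart.

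Higher in LL were Als2cl (chr9:110708832-110729598), of a family of exchange factors for small GTPases, and Palmd, palmdelphin. Als2cl was at 12.3, 14.3 and 20.8 CPM in PL and 18.0, 24.1 and 29.0 CPM in LL, with 5 PL mice below every LL mouse. This gave Als2cl a log2 fold change of 0.60 (SE 0.12, edgeR p 5.81e-05, adjusted 0.124; 0.00327 by DESeq2), but -0.19 without GKA (interaction unadjusted p 0.00118). Palmd had a log2 fold change of 0.46 (SE 0.10), the homeobox factor Lhx6 one of 0.88 (SE 0.18), the zinc finger gene Zfp93 one of 0.76 (SE 0.16) and Zfp367 one of 0.42 (SE 0.09), all with an edgeR adjusted p of 0.124. Lhx6 was at low counts, at 1.76, 2.74 and 5.11 CPM in PL and 3.54, 5.54 and 6.91 CPM in LL. Zfp93 was at lower counts still, at 0.982, 1.77 and 2.06 CPM in PL and 2.09, 2.81 and 3.79 CPM in LL.

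DESeq2 called further genes of liver metabolism, none a DEG by edgeR. Gnmt, glycine N-methyltransferase, was at 479, 970.3 and 1296 CPM in PL and 362, 546 and 858 CPM in LL, a log2 fold change of -0.73 (SE 0.18, edgeR adjusted p 0.204; 0.0251 by DESeq2). Slc38a3, a glutamine transporter, was at -0.54 (SE 0.14), Papss2, which makes the sulfate donor, at -0.72 (SE 0.16), and Cyp17a1, a steroid hydroxylase, at -1.14 (SE 0.30). Of genes of cell death, Bmf was at -1.003 (SE 0.24) and Casp8 at 0.45 (SE 0.10). With and without GKA, Bmf had log2 fold changes of -1.003 and -1.07, whereas Casp8 was at -0.11 without GKA (interaction unadjusted p 0.000816). Fau (-1.27) and Gstp2 (3.46, spread from 1.52 to 181 CPM within LL) have near-identical copies in the genome, so their values are uncertain, as are those of Rps27a-ps3. Apoc2l had a log2 fold change of 2.79 by DESeq2 (adjusted p 0.0293) but an unadjusted edgeR p of 0.372. Its level was uneven between mice, reaching 442 CPM in PL mouse 29 and 517 and 403 CPM in LL mice 48 and 51.

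Other lists held smaller differences. Of 14 genes of fatty acid oxidation and its regulator PPARA, 12 were higher and 3 of these had an unadjusted p below 0.05 (3.79% of all genes in that direction), with a median log2 fold change of 0.21 (Vnn1 0.68, Plin2 0.39 and Slc25a20 0.23). Their mean log2 CPM had like medians over mice, 7.76 in PL and 7.78 in LL, and was lowest in PL mouse 32 (6.39). Of 16 heat shock genes, 10 were higher (8 under the transcript length offset), 4 past the same threshold beside the same 3.79%, with a median of 0.07 (Hspb1 0.94, Hsp90aa1 0.48, Hspa4l 0.39 and Hsp90ab1 0.24). Without LL mouse 48 the value of Hspb1 was 0.61. The 22 chaperone and stress genes of the endoplasmic reticulum were split, 11 higher and 11 lower, with Derl3, of protein degradation, at 1.84 (SE 0.52) and Herpud1, of the same process, at -0.48 (SE 0.13). Interferon genes were higher for 10 of 11, where 5182 of all 10491 genes were higher. Only 2 of the 11 had an unadjusted p below 0.05 (3.79% of all genes in that direction). Their median log2 fold change was 0.26, with Rsad2 at 0.47 and Ifit1 at 0.41. Without GKA 7 of 11 were higher, with a median of 0.04. The mean of the list was highest in PL mouse 29 and in LL mouse 48.

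Of 11 stellate cell and matrix genes listed 7 were tested, and all 7 were higher (6 under the offset and 6 without the 3 mice named above). Only 1, Col1a1 at 1.13 (0.66 without LL mouse 48), had an unadjusted p below 0.05, beside 3.79% of all genes in that direction. Col1a1 was at few counts, between 0.94 and 4.39 CPM in PL. Summed markers of that list ranged from 86.4 to 185 CPM in PL and from 107 to 299.7 CPM in LL, highest in LL mouse 48, without which the median log2 fold change of the 7 was 0.19 in place of 0.45. Ighm, an immunoglobulin chain of B cells, was at 2.19, 22.1 and 53.8 CPM in PL and 3.71, 6.96 and 26.9 CPM in LL (a log2 fold change of -1.53, SE 0.46, adjusted p 0.336). The acute phase gene Saa2, at -1.75 (SE 0.75), reached 1073 CPM in PL mouse 31 (-0.97 without it) but had like medians of 72.0 and 70.2 CPM in PL and LL. Mki67, of dividing cells, was at 1.09 (SE 0.40) at few counts, with no adjusted p by DESeq2.

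Clock genes differ with the hour of harvest, which is not given, and 10 of 14 were lower in LL (7 under the transcript length offset), 3 at an unadjusted p below 0.05 (4.8% of all genes in that direction), with a median log2 fold change of -0.22. Nr1d1, Cry2 and Per1, all repressors of the clock, were at -0.35, -0.35 and -0.67 (SE 0.13, 0.14 and 0.32), and Dbp was at -0.56 (SE 0.31). Without PL mouse 30 the value of Per1 was -0.42. A clock component, the first principal component of 16 clock genes, was 0.561 ± 0.494 in PL (n = 8) and 0.0947 ± 0.696 in LL (n = 10), in units of its SD over 55 mice. With this component as a covariate the 20 cholesterol enzymes remained lower, 19 at an unadjusted p below 0.05, with a median log2 fold change of -0.96. Whether the hour of harvest bears on these enzymes was not tested, as the hours are not given.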

How the data were processed

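Liver RNA (integrity number above 6) was sequenced by the authors, who quantified it with Salmon 1.4.0 on GENCODE M26 transcripts (GRCm39) without trimming. The deposited files give an estimated count for each of 139225 transcripts and mouse, which is not normalised, and, per the file headers, TPM, scaled by effective length. Estimated counts were summed per gene through GENCODE vM39 identifiers (98.8% of transcripts matched, 52230 genes) and rounded; positions are GRCm39. Each group holds separate mice, and no 2 mice of a group agreed within sampling noise (chi-square per degree of freedom at least 21.0).

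LL and PL mice with GKA were tested by the quasi-likelihood method in edgeR 4.0.16 (TMM, filterByExpr, R 4.3.3), and the interaction was fitted on 4 groups. CPM are TMM-scaled over 55 mice, PP mouse 7 being left out as the authors did; log2 CPM has a prior count of 2. Fold changes carry their SE. On simulated counts for LL against PL with GKA, 88.2% of 195 genes changed 2-fold were called (6.01% of calls false, 10347 genes). Of 198 genes changed 1.5-fold, 45.5% were called (2.17% false, 10326 genes). Whether these rates hold for the mice, where the SD of all 20 cholesterol enzymes was larger in PL than in LL, was not tested. Among the mice, edgeR called no DEG, with log2 fold changes of -2.20 for Sqle and -1.25 for Acss2. The Gckr-202 share was compared by an exact permutation test (SciPy 1.17.1).

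As alternatives, DESeq2 1.42.0 (used by the study), other size factors, no filter, all 6 groups, a transcript length offset, the clock component as a covariate, no fold threshold, each mouse left out and, chosen after seeing the data, 3 mice left out were tried. Genes named were Gckr, the 5 higher and 5 lower with the smallest p, up to 4 per list, all enzymes and sterol regulators, and genes called by DESeq2; Fgf21, Me1, Rgs16, Abcg5 and Abcg8 were named after their values were seen. Some genes that this rule selects are not reported here by name, but stay in the counts and medians. The members and lists were chosen with earlier results of these data known. The labels give no batch. Intervals and tests cover the spread between mice only.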

Additional observations from a re-analysis of the deposited data

Results flagged for a closer look

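In 172 checks of single mice within a group (each named gene in PL and in LL with GKA, the Gckr-202 share and the mean of the cholesterol enzymes), 6 had 1 mouse far from the others, where chance would give about 1 in 20. Values are log2 CPM. PL mouse 30 was lowest for Ighm (1.32, next mouse 3.84). PL mouse 29, which also held the most macrophage RNA, was highest for Hspb1 (4.59, next 3.42). PL mouse 33 was lowest for Slc25a47 (8.48, next 8.96). LL mouse 49 was lowest for Papss2 (4.61, next 5.42). LL mouse 53, which held the most blood RNA, was lowest for Me1 (6.41, next 7.87) and for Pnpla3 (-0.13, next 0.99). The mean of the cholesterol enzymes had no such mouse in either group.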

How the results depend on the processing

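The count of DEGs depended on the tool and on single mice. It was 0 by edgeR, also with other size factors, without the filter, without the fold threshold, with the clock covariate and without the 3 mice high in markers of other cells, but 30 by DESeq2, 21 with all 6 groups in 1 fit and 2 with the transcript length offset (Slc6a9 and Idi1). Leaving out 1 mouse gave between 0 and 15. The interaction count was 0 by edgeR and 3 by DESeq2. The cause was not tested.

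The median of the cholesterol enzymes stayed negative under every alternative run, between -0.73 and -1.01 when 1 mouse was left out, with all 20 lower and 17 to 19 at an unadjusted p below 0.05, and -0.84 with the length offset, where 18 were lower. The change of Gckr lay between -0.14 and -0.04, and the difference of the Gckr-202 share between -8.92 and -3.85 percentage points when 1 mouse was left out and at -9.43 in TPM. Direction turned for Dhcr7 (0.39), Ebp (0.26), Scap (0.26), Nr1h2 (0.42) and Abcg5 (-0.0405) with the length offset; among the other named genes that edgeR tested it turned under no alternative. The offset also brought Lss to -0.11, Gpd2 to 0.03, Plin2 to 0.12, Zfp367 to 0.13, Pnpla3 to -0.44 and Fdps to -0.56, and the clock covariate brought Insig2 to 0.09, Dbp to -0.23 and Pdk4 to 0.67. The median of fatty acid synthesis was -0.25 without PL mouse 36.

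No paired analysis was possible because the 2 groups share no mouse number. At this depth, genes of a few CPM rest on few reads and their fold changes are uncertain.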
